A study of Oryza sativa with 24 samples.

Results

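The potassium transporters and channels of rice (Oryza sativa L. ssp. japonica) were followed through pollen development and germination and in callus, leaf and root. Members were all probe sets that the array annotation assigns to 1 rice gene with a RefSeq symbol or synonym of the HAK, HKT, AKT, KAT, KCO or TPK series, or SKOR. They are 35 of the 57258 probe sets and represent 28 of the 17905 genes that can be named so: 22 HAK genes, AKT1, HKT1;5, the two-pore channel genes TPKa and TPKb, and the genes named TPK2 and TPK3. A further 11 genes fit the naming rule but had no probe set assigned (among them HAK6, HAK19, HAK24, TPKc and the HKT genes HKT1;1, HKT1;3, HKT1;4, HKT2;1, HKT2;3 and HKT2;4), and no KAT or SKOR name was found. The symbols TPK2 and TPK3 are also used in rice for thiamine pyrophosphokinases, and the names alone do not settle which gene is meant, so both are described last and counts are given with and without them.

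Potassium is the main inorganic cation of plant cells. Its uptake into the cell and into the vacuole draws in water, and the turgor that results drives cell expansion, which includes the swelling of the pollen grain at anthesis and the growth of the pollen tube. HAK proteins (also called KT or KUP) are transporters, many of which carry potassium into cells at low external concentrations. AKT1 is an inward-rectifying channel of the Shaker type known from root cells. HKT proteins carry sodium or sodium with potassium, and two-pore channels sit mostly in the vacuolar membrane.

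The 24 one-colour arrays (Affymetrix Rice Genome Array) comprise 8 tissues with 3 arrays each. The pollen groups were uninucleate microspores released from the tetrad (UNMs), bicellular pollen (BCP), immature tricellular pollen before dehydration (TCP), mature pollen grains shaken from flowering panicles (MPGs), and germinated pollen grains (GPGs), which had spent about 10 min at 30 °C in a liquid medium of 20% sucrose with polyethylene glycol, calcium nitrate, boric acid and vitamin B1. The sporophytic groups were callus grown from seeds for about 1 month at 25 °C with 2 mg per litre of the auxin 2,4-D, leaf, and roots of seedlings 2 weeks old. The sample labels describe the leaf as flag leaf at grain filling, 110 to 120 days after germination, whereas the methods of the study name seedling leaves, so the age of the leaf is uncertain. The label of BCP covers grains before and after pollen mitosis. UNMs, BCP and TCP were released from crushed anthers, and BCP and later pollen hold a vegetative cell together with the generative or sperm cells. In such bulk samples fewer cells of a type cannot be told apart from less RNA per cell.

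Every array was scaled to the same 2% trimmed mean of 500.1, but the MPG and GPG arrays stood apart from the others. Their median signal was 165.1 ± 18.5 (mean ± SD, n = 6 arrays) against 68.6 ± 14.9 (n = 18), and the geometric mean of 18 hybridisation control probe sets was 16386 ± 4153 against 2836 ± 982, with no overlap in either. That of 27 poly-A control probe sets was 2440 ± 2731 against 437 ± 165, with overlap. It varied widely within a stage, from 693 to 7902 in MPGs and from 182.5 to 499 in BCP. For GAPDH, the signal of the 3′ control probe set divided by that of the 5′ one was 10.1 ± 5.82 against 3.74 ± 1.73, with overlapping ranges. The 3′ signal itself was 1012 ± 294 against 13885 ± 2142, so the ratio on the MPG and GPG arrays rests on a much weaker signal. Root replicate 3 also stood apart, since 1904 and 1917 of 14040 brighter probe sets (mean signal of at least 500 in root) differed by over 2-fold between it and root replicates 1 and 2, and only 5 did so between replicates 1 and 2. For leaf and root the summed signals of the defining markers were high where the label places them. The summed signal of 9 leaf marker probe sets (photosynthesis genes) was 113870 to 150847 in leaf and at most 4215 elsewhere, and that of the root silicon transporters Lsi1 and Lsi2 was 10169 to 23068 in root and at most 904 elsewhere. Of the 9 leaf probe sets 7 had their highest mean in leaf. RBCS1 was highest in MPGs (179, with 36.6 in leaf) and 1 rbcS probe set in GPGs (71.5, with 41.1 in leaf). The probe sets of 2 expansins typical of grass pollen (EXPB9 and EXPB10) summed to 11839 or more in every pollen array and to at most 362 in the sporophytic arrays. The 7 marker probe sets of the tapetum, the anther layer around the microspores, summed to 21650 to 24504 in UNMs and to at most 11436 elsewhere. Of these 4 had their highest mean in UNMs, and 1 each in BCP, GPGs and leaf. RTS had 12695 in UNMs and 1107 in BCP, whereas the CP1 probe set highest in leaf had 11259 there and 6614 in UNMs. The part of these markers in the differences between UNMs and BCP was not tested.

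Signals are in the scaled units of the array software (MAS5), and differences are given as log2 changes of the signal plus 50, with a standard error (SE). A probe set is called changed if its log2 change is at least 1 and its limma p, adjusted by the Benjamini-Hochberg method, is under 0.05. Of the 35 member probe sets 34, from all 28 genes, reached a signal of 100 in 3 or more arrays and were tested among 47589. The exception was the second HAK22 probe set (S1_at), which lay between 1.0 and 89.6 in all 24 arrays. Genes are given with their RefSeq locus, and the probe sets of a gene that has a pair with the ending of their name (S1_at, S1_x_at, S1_a_at or S2_at). Both HAK5 probe sets end alike and are told apart by brightness.

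By tissue of the highest mean signal, the 34 tested probe sets fell into leaf (10), root (11), GPGs (4), BCP (3), TCP (3), MPGs (2) and callus (1), and none had its highest mean in UNMs. Over all tested probe sets the shares were 11.95% for leaf, 10.0% for root, 23.95% for GPGs, 6.03% for BCP, 5.09% for TCP, 23.68% for MPGs, 9.02% for callus and 10.29% for UNMs. For 15 of the 34 (44.1%) all 3 arrays of the highest tissue lay above every other array, compared with 35.1% of all tested probe sets. The forms high in BCP or TCP are described first, then the late pollen forms, and then those of leaf and root.

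HAK3, HAK2, HAK15, HAK10 and HAK23 all increased from UNMs to BCP. Their probe sets accounted for 7 of the 9 members that rose at this step, the others being TPKa and TPK2, and AKT1 was the single member that fell. The 9 are 26.5% of the 34 tested, while 6.11% of all tested probe sets rose, and the 1 that fell is 2.94% against 8.19%. Without TPK2 and TPK3 the counts were 8 and 1 of 32. At an adjusted p under 0.05 of any size the counts were also 9 and 1.

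HAK3 had the largest rise of the members at BCP. Its probe set S2_at (locus LOC4325737) read 315.5, 356 and 348 in the UNM arrays. In BCP the 3 arrays read 5276, 5279 and 4872, and in TCP 5382, 5872 and 5851. The increase at BCP was 3.74 on the log2 scale (SE 0.38, limma adjusted p = 2.6e-07), and every BCP and TCP array lay above every UNM array. In MPGs the same probe set read 35.2, 165 and 22.6 and in GPGs 197, 17.7 and 18.7. Of these 6 values 5 were under 165.1, the average of the median signals of those arrays. In callus, leaf and root it stayed between 1.0 and 10.9.

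HAK2 (LOC4326793) was already well above its sporophytic levels in UNMs, where it read 4063, 4051 and 3686. It rose to 11028, 10565 and 9861 in BCP (1.40, not called with the poly-A controls, adjusted p = 0.12) and read 10501.5, 10938 and 10299 in TCP. The MPG arrays read 1197, 1074 and 1625.5 and the GPG arrays 1309, 1449.7 and 1431, within or close to the range of the sporophytic arrays. Callus had 1181, 1291.5 and 1166, leaf 1118, 1427 and 1185 and root 841, 854 and 573.

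HAK15 (LOC4336950) climbed in 2 steps. It read 1293, 1377 and 1478.5 in UNMs, 4468, 5511 and 5173 in BCP and 11063, 10169 and 11558 in TCP, with no overlap between neighbouring stages. The changes were 1.83 (SE 0.19) and 1.11 (SE 0.19) on the log2 scale. The second was not called with equal medians (0.72, adjusted p = 0.072), with the hybridisation controls (0.70, adjusted p = 0.069) or with the poly-A controls (0.55, adjusted p = 0.63). In MPGs it was back at 2215, 1729 and 2155, and in GPGs it read 2692, 2774 and 2206. The 9 sporophytic arrays lay between 1082 and 1678.

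HAK10, whose rice protein is known from the vacuolar membrane, had a peak in BCP as well as a high level in root. The probe set S1_at (locus LOC4341573) read 282.5, 220.5 and 298 in UNMs, 2407.5, 1902 and 2199.5 in BCP and 1609, 1183 and 1639.7 in TCP. It then dropped to 289, 255 and 480.2 in MPGs and 259, 283 and 232 in GPGs. Callus read 579, 552 and 676.5, leaf 615, 734 and 757 and root 5393.5, 5475 and 2356. All BCP arrays were thus above callus and leaf, and only root replicate 3 came down to the BCP range. The second probe set, S1_x_at, read 164, 83.5 and 112 in UNMs, 763, 987 and 927 in BCP and 421, 630.1 and 539 in TCP. It read 465, 16.8 and 22.8 in MPGs, 39.2, 14.3 and 38.8 in GPGs, 310.2, 278 and 226 in callus, 405.5, 259 and 338 in leaf and 2613, 2733 and 1054 in root. Both probe sets followed the same order of tissues, and 1 MPG array of the second was far above the other two.

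HAK23 (LOC4346918, a probe set that matches several transcripts) read 862, 792.5 and 946.5 in UNMs and 3740, 4521 and 3949 in BCP. It read 2668.5, 3846 and 4312 in TCP, 1469.5, 1826 and 1228 in MPGs and 1316, 1109 and 1283.5 in GPGs. Callus had 928, 1033 and 981, leaf 1107.5, 960.2 and 924 and root 1465, 1382 and 1333. Outside BCP and TCP all its arrays lay between 793 and 1826. The rise at BCP was 2.17 (SE 0.21) on the log2 scale.

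HAK26 (LOC4345999) was high in UNMs and BCP and fell at each later step. UNM arrays read 9424, 9527 and 10083 and BCP arrays 14078, 15875 and 14656. TCP arrays read 4832, 7652 and 6515, MPG arrays 755, 502 and 614 and GPG arrays 251, 43.5 and 258. Callus had 19.4, 24.6 and 11.4, leaf 85, 3.1 and 29.1 and root 4.0, 0.9 and 0.8. From BCP on, the stage means decreased at each step, by −1.25 (SE 0.36, limma adjusted p = 0.012), −3.24 (SE 0.36, adjusted p = 3.6e-07) and −1.70 (SE 0.36, adjusted p = 0.0051) on the log2 scale. The first of these was not called without TCP replicate 1 (−1.07, adjusted p = 0.063), and with an offset of 16 in place of 50 its adjusted p was 0.077. The last was not called with the arrays scaled to the hybridisation controls (−1.27, adjusted p = 0.11).

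**Figure D1:**
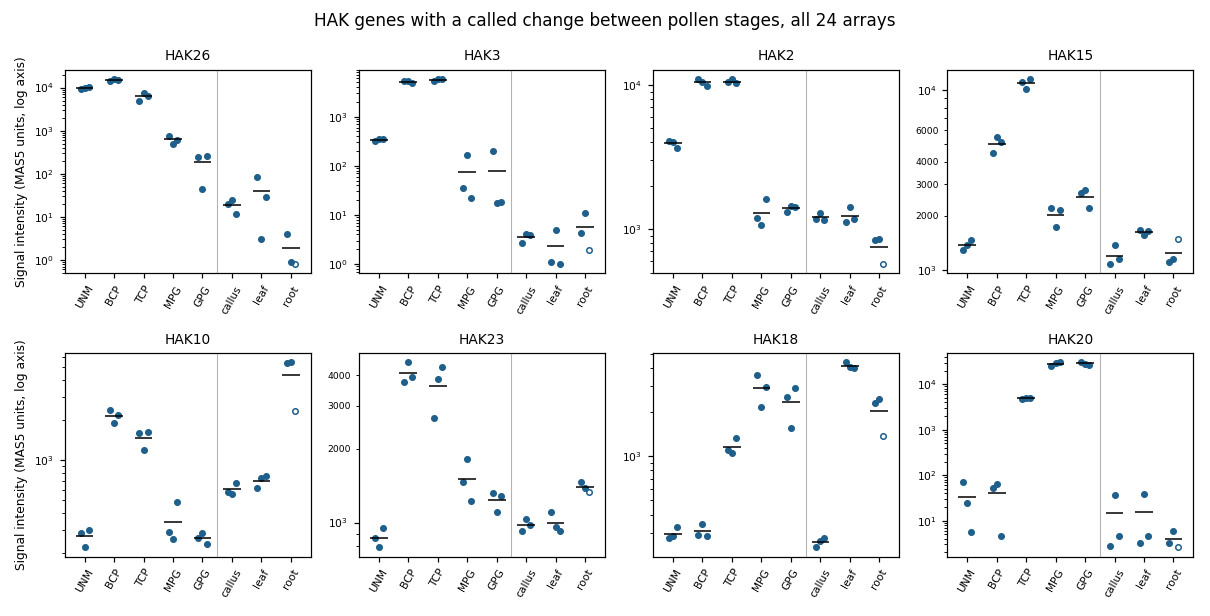
Signal intensity (MAS5 units, log axis) of 8 HAK genes on all 24 arrays, by tissue; points are arrays, black lines are means of 3 arrays, open circles are root replicate 3, and the grey line separates pollen from sporophytic tissues. HAK3, HAK2, HAK15, HAK10 and HAK23 are lower in MPGs than in BCP and TCP, HAK26 is high in UNMs and BCP, and HAK20 reads 4693 to 5062 in TCP and 25921 to 30770 in MPGs and GPGs.

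From BCP to TCP HAK20 rose by 5.84 on the log2 scale (SE 0.30, limma adjusted p = 1.8e-12), the largest change of any member between neighbouring stages. The step called 4 members higher (11.8%, against 10.2% of all tested probe sets) and 4 lower (11.8%, against 12.9%). Without TPK2 and TPK3 these were 3 and 4 of 32. The members that rose were HAK20, HAK18, HAK15 and TPK2, and those that fell were both HAK7 probe sets, HAK26 and AKT1.

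HAK20 (LOC4329489) read 71.1, 24.2 and 5.7 in UNMs and 51.8, 65.5 and 4.7 in BCP. In TCP the arrays read 4693, 4955 and 5062, in MPGs 25921, 29074.5 and 30651.5 and in GPGs 30769.7, 28565 and 27181. The 9 sporophytic arrays lay between 2.6 and 38.3, with callus at 2.8, 36.9 and 4.6, leaf at 3.2, 38.3 and 4.6 and root at 3.2, 5.8 and 2.6. All 9 late pollen arrays were above all other 15, with no value in between. The gene lies on chromosome 2 directly beside HAK19 in the RefSeq order of genes (assembly ASM3414082v1), and HAK19 itself had no probe set assigned.

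HAK18 (LOC4347862) read 275, 285 and 329 in UNMs and 291, 345 and 285 in BCP. It rose to 1103, 1049.5 and 1329.5 in TCP (1.76, SE 0.25) and read 3579, 2171 and 2987 in MPGs and 2529.7, 1569 and 2908 in GPGs. Unlike HAK20 it was also high outside pollen, at 4397, 4046 and 4033 in leaf and 2315, 2471 and 1371 in root, while callus had 239, 264 and 275. The rise at TCP was not called with the arrays scaled to the poly-A controls (1.28, adjusted p = 0.14).

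HAK7 (LOC4344235, probe set S1_at) fell from BCP to TCP. Its arrays read 1673, 1649 and 1724 in UNMs, 1336, 1288 and 1216 in BCP and 465, 351 and 308 in TCP, a fall of −1.66 (log2) at the last of these steps. They read 211, 62.9 and 246 in MPGs and 427, 48.8 and 195 in GPGs. The second probe set, S1_x_at, read 676, 897 and 726, then 929.7, 856 and 873, and in TCP 299, 292 and 195, with a fall of −1.60 at the same step. It read 239, 199 and 25 in MPGs and 223, 196 and 282 in GPGs. For both probe sets every TCP array lay below every BCP array.

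From TCP to MPGs HAK2, HAK15, HAK23, both HAK10 probe sets and, with the deposited scaling, 1 of the 2 HAK3 probe sets fell. Of the 34 tested 9 fell (26.5%, against 11.9% of all tested probe sets) and 6 rose (17.6%, against 27%). Without TPK2 and TPK3 these were 9 and 5 of 32. The largest fall was that of HAK3 S2_at, by −5.71 (SE 0.38, limma adjusted p = 3.2e-10). HAK17, HAK26, HAK2 and HAK15 followed with −3.69 (SE 0.75), −3.24 (SE 0.36), −3.00 (SE 0.20) and −2.40 (SE 0.19), then both HAK10 probe sets with −1.99 and −2.08, HAK23 with −1.22 and HAK7 S1_at with −1.03. For each of these probe sets except HAK10 S1_x_at all 3 MPG arrays lay below all 3 TCP arrays. The highest MPG array of HAK10 S1_x_at read 465, above its lowest TCP array at 421. The HAK7 S1_at call was lost without MPG replicate 2 (−0.59, adjusted p = 0.23), without any 1 of the TCP arrays (−0.88 to −1.14), and with an offset of 16. HAK7 S1_x_at changed by −0.81 and was not called with the deposited scaling. It was called lower with each of the 4 other scalings (−1.41 to −1.74).

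HAK17 (LOC4347211, probe set S1_at) fell from TCP to MPGs. It read 1335, 1804 and 2045 in UNMs, 858, 776 and 1159.6 in BCP and 1492.5, 1045 and 2023 in TCP, against 48.3, 21.5 and 179.7 in MPGs and 11.9, 30.6 and 189.9 in GPGs. The UNM arrays lay above the BCP arrays without overlap, a difference that was not called (−0.86, SE 0.75, adjusted p = 0.59). In the sporophyte callus read 314, 385 and 379 and leaf 1351, 2000.2 and 2089, and root read 1568, 1642 and 38.1, with replicate 3 far below the other two. The second probe set, S1_x_at, read 712, 791 and 959 in TCP and 279, 151 and 441 in MPGs, a difference of −1.44 (SE 0.58) that just missed the threshold (adjusted p = 0.05). It was called lower with quantile normalization (−2.06), equal medians (−2.20), the hybridisation controls (−2.76) and the poly-A controls (−2.96).

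The rise of HAK20 into MPGs was 2.53 (SE 0.30, limma adjusted p = 8.2e-07). The other members that rose were HAK27 (1.73), HAK25 (1.71), TPK3 (1.61), HAK18 (1.27) and HAK12 (1.10). For HAK27, HAK25 and TPK3 the MPG values of 361, 24.1 and 377, of 379.7, 125 and 361 and of 411, 145 and 293 straddled the median signal of those arrays, and they were below the leaf values of the same genes. HAK27 was not called without MPG replicate 1 (1.33, adjusted p = 0.063) or 3 (1.30, adjusted p = 0.059), and HAK12 fell under the size that is called without TCP replicate 2 (0.96) or MPG replicate 2 (0.88). The rises depended on how the arrays are scaled. Against a median change over all tested probe sets of 0.55 with the deposited scaling, −0.47 with the hybridisation controls and −0.54 with the poly-A controls, HAK20 changed by 0.73 (adjusted p = 0.18) and 0.46 (adjusted p = 0.72) with the controls, and HAK18 and HAK12 turned negative. The counts higher and lower were 3 and 10 with quantile normalization, 1 and 12 with equal medians, 0 and 15 with the hybridisation controls and 0 and 12 with the poly-A controls. Over all 47589 tested probe sets they were 12852 and 5641 with the deposited scaling, 6255 and 7509 with quantile normalization, 2995 and 9739 with equal medians, 625 and 13776 with the hybridisation controls and 219 and 11342 with the poly-A controls. HAK20 was called higher with quantile normalization (1.93) and with equal medians (1.54). Of the 9 falls 8 were called under all 5 scalings, HAK23 with quantile normalization (−0.66) being the exception, while none of the 6 rises was.

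**Figure D2:**
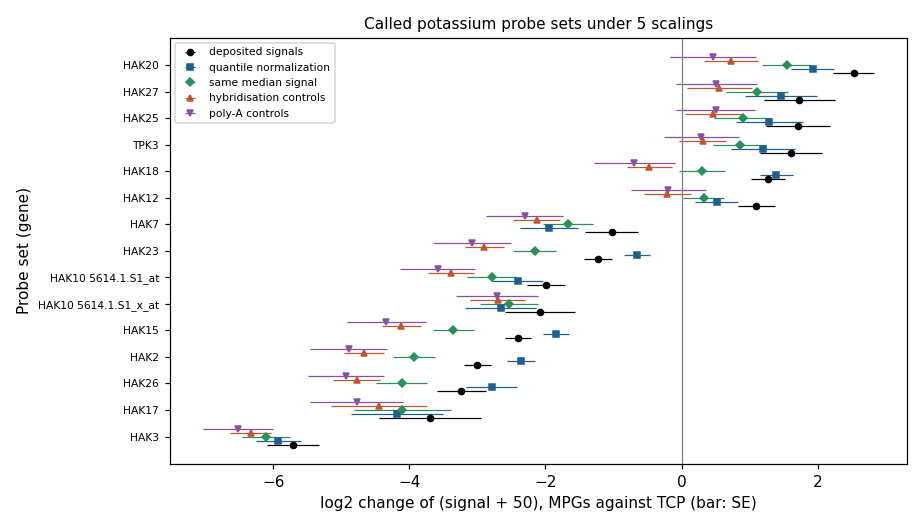
Log2 change of (signal + 50) from TCP to MPGs, with its SE, for the 15 called probe sets under 5 scalings of the arrays. The falls from HAK3 to HAK7 stay below 0 under each scaling. The 6 rises are smaller with equal medians and with either set of controls than with the deposited scaling, and HAK18 and HAK12 cross 0 with the controls.

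Between MPGs and pollen germinated for about 10 min a single member was called. None was called higher in GPGs (0%, against 3% of all tested probe sets) and 1 was called lower (2.94%, against 4.67%), HAK26. The counts were the same without TPK2 and TPK3. By limma 1 member was higher at an unadjusted p under 0.05, HAK14 (LOC4343344), which read 109, 291 and 77.8 in MPGs and 357, 452 and 335 in GPGs (1.17, SE 0.38, adjusted p = 0.059). It was called with replicate number as a block (adjusted p = 0.048), with quantile normalization (1.54, adjusted p = 0.013), without MPG replicate 2 (1.59, adjusted p = 0.012), and without TCP replicate 2 (adjusted p = 0.048) or 3 (adjusted p = 0.016). Without MPG replicate 2 HAK25 (−1.69, adjusted p = 0.033) and HAK27 (−1.49, adjusted p = 0.028) were also called lower, and HAK25 likewise without GPG replicate 2 (−1.71, adjusted p = 0.031). HAK11 was called lower without MPG replicate 3 (−1.39, adjusted p = 0.037). HAK14 read 76.1, 32.6 and 46.8 in BCP and 143, 146 and 129 in root. HAK20 differed by 0.02 (SE 0.30) between MPGs and GPGs, HAK15 by 0.33 (SE 0.19) and HAK2 by 0.12 (SE 0.20), and small changes are not detectable with these errors.

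More potassium genes were lower than higher in pollen compared with callus, leaf and root. Comparing the mean of the 5 pollen stages with the mean of the 3 sporophytic tissues, 7 probe sets were higher in pollen (20.6%, against 20.8% of all tested) and 15 lower (44.1%, against 20.7%). Without TPK2 and TPK3 these were 6 and 14 of 32. The median log2 change was −0.62 over the members and 0.39 over all tested probe sets. All 15 lower calls held under all 5 scalings, and 5 of the 7 higher calls did (HAK26, HAK20, both HAK3 probe sets and TPK2). HAK2 and HAK15, whose late pollen levels are near the sporophytic ones, were the exceptions (0.40 and −0.19 with the hybridisation controls). Of the HAK10 pair S1_x_at was among the 15 lower, whereas S1_at was not called with the deposited scaling and all arrays. S1_at was called lower with equal medians (−1.54), the hybridisation controls (−2.25) or the poly-A controls (−1.33), and without root replicate 3 (−1.08).

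The forms higher in pollen were HAK26 by 5.30 (SE 0.19), HAK20 by 5.02 (SE 0.16), HAK3 by 3.64 (SE 0.20) and, for its second probe set, 2.52 (SE 0.23), HAK2 by 1.83 (SE 0.10) and HAK15 by 1.27 (SE 0.10), with TPK2 at 2.48.

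**Figure D3:**
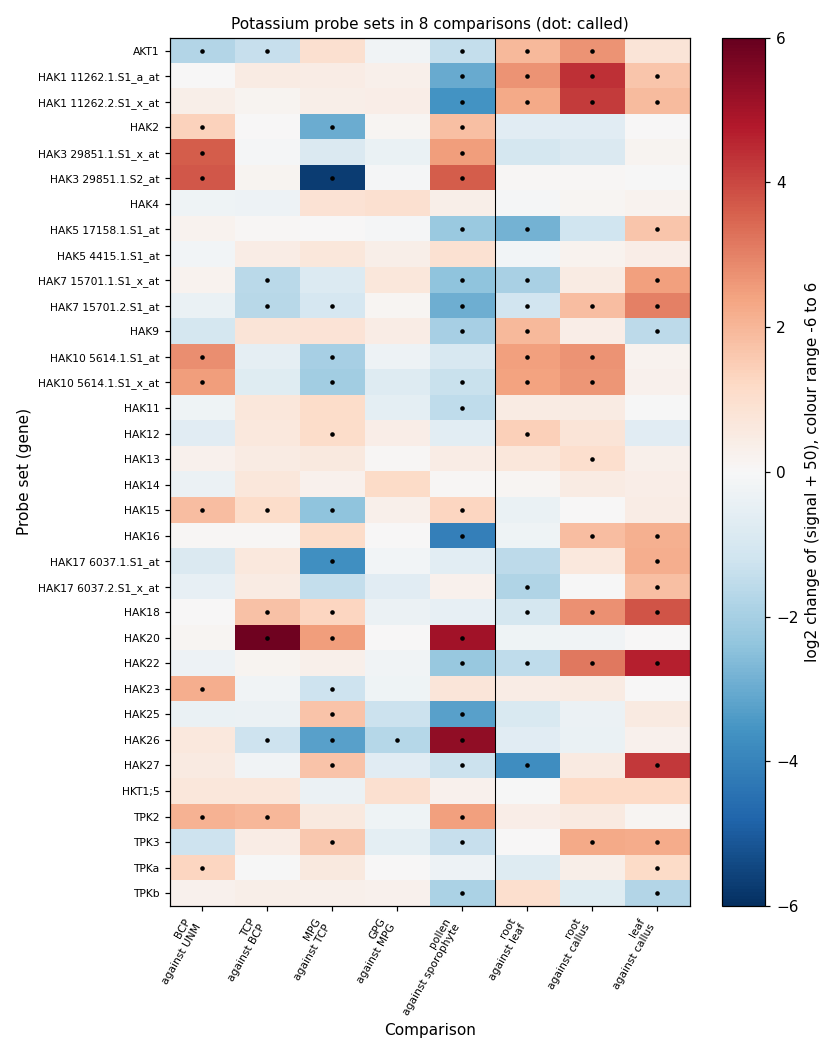
Log2 change of (signal + 50) for the 34 tested probe sets in 8 comparisons, in colour from −6 to 6, with a dot where the change was called. The column of pollen against sporophyte holds 15 lower and 7 higher calls, and that of GPGs against MPGs a single one, HAK26.

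The genes lower in pollen were led by transporters of the root and leaf. HAK1, a high-affinity potassium uptake transporter of rice roots, was lower by −3.04 (SE 0.21) and −3.58 (SE 0.26) with its pair of probe sets. The probe set S1_a_at (locus LOC4335729) read 6344, 6503 and 5969 in root, 1084, 825 and 903 in leaf and 281, 252 and 241 in callus. In pollen it read 115, 35.3 and 26.8 in UNMs, 62.5, 11.2 and 112 in BCP and 116, 151 and 42.9 in TCP, then 58.2, 283 and 174 in MPGs and 140.5, 213 and 261.5 in GPGs. The second, S1_x_at, read 12198, 12421 and 12424 in root, 2278, 2425 and 2751 in leaf and 641, 614 and 650.2 in callus. Its pollen arrays read 83.5, 158 and 78.7 in UNMs, 142.5, 157 and 135 in BCP and 249, 143 and 131 in TCP, then 767, 82.6 and 153 in MPGs and 537, 559 and 92.8 in GPGs. The root arrays, replicate 3 included, differed little for this gene and were above every other array with both probe sets.

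HAK16, which takes part in potassium uptake and its transport to the shoot, had the largest deficit of the members in pollen, −4.11 (SE 0.32). At locus LOC4333298 it read 2738, 3099 and 3144.5 in leaf and 603, 600.2 and 741 in callus, and 4938, 4720 and 618 in root, where replicate 3 was about as low as callus. UNMs had 9.2, 15.4 and 30.1, BCP 8.5, 42.7 and 18.5 and TCP 77.6, 12.9 and 6.2. MPGs had 287, 14 and 163 and GPGs 44.1, 218 and 147. Every pollen array was below every sporophytic array. The excess of root over callus was 1.85 (SE 0.62, adjusted p = 0.029), and 2.81 (adjusted p = 0.00031) without root replicate 3. It was not called without either of root replicates 1 (1.36) and 2 (1.39) or any 1 of the callus arrays (1.81 to 1.95). In RefSeq order HAK16 lies directly beside HAK27 on chromosome 3.

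HAK25 (LOC4330614) read 1516, 1198 and 1270.5 in callus, 1899, 2031.5 and 1984 in leaf and 686, 691 and 2323 in root. In pollen it read 121, 158 and 77.2 in UNMs, 89.3, 125 and 27.6 in BCP, 10.6, 81.1 and 61.3 in TCP, 379.7, 125 and 361 in MPGs and 64.1, 187.5 and 30.7 in GPGs. Pollen was lower by −3.25 (SE 0.24), again with no overlap. Root replicate 3 here was over the leaf arrays, and without it root was lower than leaf by −1.45 (adjusted p = 0.018), compared with −0.89 (adjusted p = 0.18) with all arrays.

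HAK7 was highest in leaf, with 11108, 11004 and 10350.1 in leaf, 4973, 4941 and 4526 in root and 1531.5, 1158 and 1221 in callus with S1_at. With S1_x_at it read 6192, 6849 and 5227 in leaf, 1180.5, 1185 and 2452 in root and 1156, 1116 and 884 in callus. The deficit in pollen was −2.95 (SE 0.20) and −2.41 (SE 0.19).

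HAK22 (LOC4342173, probe set S1_x_at) was a leaf and root form that was dim everywhere else. It read 1649, 1519.8 and 1314 in leaf and 652.5, 669.8 and 263 in root, against 10.5, 15.3 and 4.8 in callus. In pollen it read 68.7, 23.5 and 7.5 in UNMs, 23.4, 16.3 and 3.3 in BCP, 36.9, 28.3 and 3.9 in TCP, 25.7, 62.8 and 29.5 in MPGs and 65, 13.3 and 11.2 in GPGs. The difference from the sporophyte was −2.29 (SE 0.17).

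HAK5, a high-affinity transporter of potassium uptake and its movement from root to shoot, was measured by a pair of probe sets that disagreed (locus LOC4326945). With the dimmer probe set leaf read 859.7, 945 and 932, callus 260.3, 239.5 and 250 and root 152, 144 and 9.6. The same probe set read 10.7, 6.2 and 22.1 in UNMs, 10.1, 68.3 and 2.7 in BCP, 2.8, 84.1 and 9.1 in TCP, 79.8, 7.5 and 6.6 in MPGs and 21.9, 5.8 and 44.3 in GPGs, and pollen was lower by −2.24 (SE 0.23). With the brighter probe set all 24 arrays lay between 15565 and 71858, the GPG arrays being the highest. Its means ran from 17416 in callus to 67986 in GPGs, tissues that were not compared directly. In none of the 8 comparisons made did it differ by 1 on the log2 scale with the deposited scaling (0.91 in pollen against the sporophyte). From TCP to MPGs it changed by 0.70 with that scaling but by −0.46 with quantile normalization and −1.10 (adjusted p = 0.011) with the hybridisation controls, and under the last pair of scalings its highest mean was in root. Over the 8 tissue means of log2(signal + 50) the probe sets had a Pearson correlation of −0.52, given as a description.

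HAK9 (LOC4344288) was high in root and callus. It read 1887, 1822 and 933 in root, 1151, 1119 and 1112 in callus and 388, 328 and 323.5 in leaf. In pollen it read 175, 169 and 157 in UNMs, 167, 6.8 and 42.2 in BCP, 84.9, 233 and 95.9 in TCP, 659, 270.1 and 89.2 in MPGs and 509, 237 and 431.5 in GPGs, with a difference from the sporophyte of −2.01 (SE 0.25). The scatter within MPGs was wide, and the highest of these arrays was above all leaf arrays.

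HAK11 (LOC4336979) and HAK27 (LOC4333296) were also lower in pollen, by −1.54 (SE 0.26) and −1.29 (SE 0.27). HAK11 was a dim form with its highest mean in root, where it read 239 to 478, against 7.7 to 78.2 in UNMs, BCP and TCP, and its MPG arrays, at 466, 206 and 20.5, spread over the whole range. HAK27 was a leaf form. It read 1533, 1449 and 1626 in leaf, 134, 126.5 and 3.9 in root and 31.4, 35.1 and 36.3 in callus, and from 3.6 to 53.5 in UNMs, BCP and TCP.

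**Figure D4:**
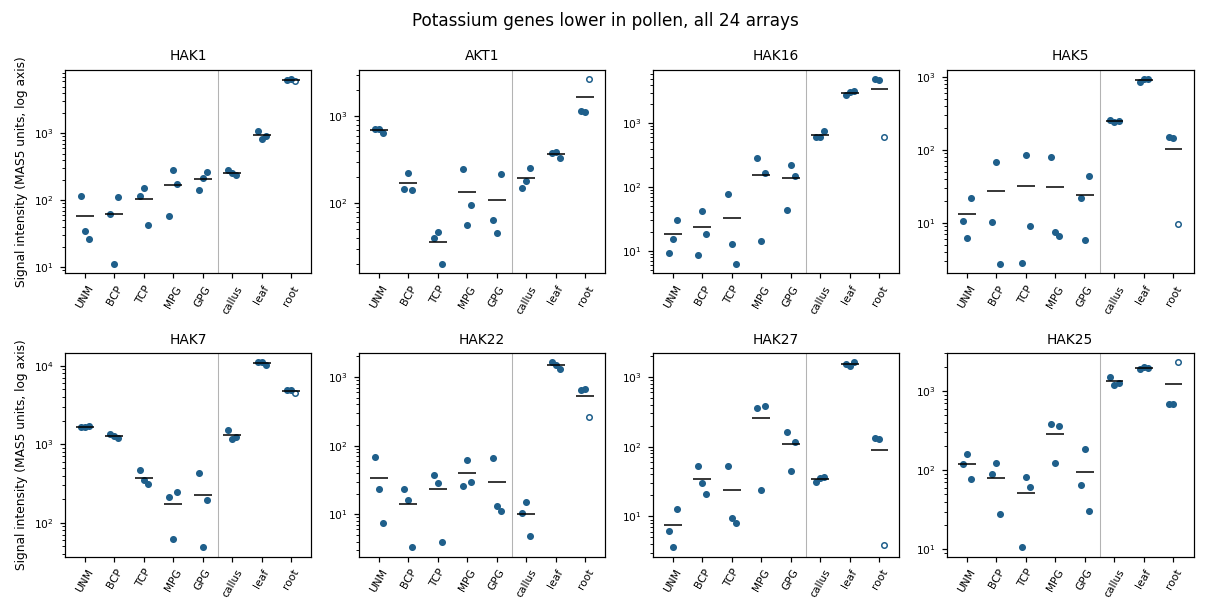
Signal intensity (MAS5 units, log axis) of 8 potassium genes that were lower in pollen, on all 24 arrays; points are arrays, black lines are means of 3 arrays, open circles are root replicate 3, and the grey line separates pollen from sporophytic tissues. HAK1 and AKT1 are highest in root, HAK5, HAK7, HAK22 and HAK27 in leaf, and root replicate 3 lies apart for HAK16, HAK5, HAK27, HAK22, HAK25 and AKT1.

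The channels had courses of their own. AKT1 (LOC4326245), whose rice channel takes up potassium into the root, read 1169, 1135 and 2704 in root, 379.6, 386 and 328 in leaf and 151, 178 and 256 in callus. In pollen it was highest in the microspore, at 714, 725 and 639. It then read 146, 219.8 and 143.5 in BCP and 39.7, 46.3 and 19.9 in TCP, so that neither neighbouring pair overlapped, with falls of −1.77 (SE 0.39, limma adjusted p = 0.002) and −1.36 (SE 0.39, adjusted p = 0.011). The second fall was not called without BCP replicate 2 (−1.20, adjusted p = 0.053). MPGs read 249, 55.6 and 95.5 and GPGs 64, 45.5 and 219.7. Pollen was lower than the sporophyte by −1.43 (SE 0.20). The UNM arrays were above all leaf and callus arrays.

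TPKa (LOC4334137), a two-pore channel of the vacuolar membrane, differed less between tissues. It rose from 134, 280 and 239 in UNMs to 534, 654 and 571.5 in BCP (1.29, SE 0.23), and this call was lost with poly-A control scaling (adjusted p = 0.1). The later stages read 430.4, 649 and 676 in TCP, 812 to 939.6 in MPGs and 861 to 956.5 in GPGs. Leaf had 923 to 1339, root 591 to 702 and callus 436 to 557. Averaged over its stages pollen differed from the sporophyte by −0.29 (SE 0.12), under the size that is called. With the hybridisation controls this difference was −1.70 (adjusted p = 7.4e-11), and the change from TCP to MPGs turned from 0.58 to −1.03 (adjusted p = 0.0067). TPKb (LOC4342213), which is known from the small vacuoles that store protein, read 504, 483 and 550.1 in callus, 157, 207 and 667 in root and 174, 88.4 and 100.3 in leaf, against 4.5 to 55.8 in UNMs, BCP and TCP and 24 to 162 in MPGs and GPGs. Its difference between pollen and the sporophyte was −1.90 (SE 0.21).

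HKT1;5 (LOC4327757), which retrieves sodium from the xylem and bears on the salt tolerance of rice, was low in most arrays. Root read 30.4, 16.2 and 717, so that its highest mean, in root, came from replicate 3 alone. Leaf read 124, 94.1 and 114, TCP 101, 275 and 80.3 and GPGs 129, 275 and 331, and no comparison called it with all arrays. Without root replicate 3 it was lower in root than in leaf (−1.13, adjusted p = 0.043, against 0.00 with all arrays).

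HAK4, HAK12, HAK13 and HAK14 were low throughout. HAK4 (LOC4345789) reached 100 in 4 arrays, 3 of them MPG or GPG arrays, and had its highest mean, 192 ± 152 (SD, n = 3), in GPGs. HAK13 (LOC4341805) reached 100 in 3 arrays, all from MPGs or GPGs, and its highest mean was 119 ± 105 in MPGs. HAK12 (LOC9270408) had its highest mean, 454 ± 69.7, in root, and 377 ± 70.2 in GPGs. HAK14 was highest in GPGs, at 381 ± 62.0. These tissues are for the deposited scaling. With the hybridisation controls HAK4, HAK13 and HAK14 had their highest mean in root. HAK13 did so with quantile normalization and with equal medians as well. The MPG and GPG values of these 4 genes, 23.0 to 452, lie around the raised median signal of those arrays.

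Within the sporophyte the potassium genes divided between root and leaf, and callus had the highest mean only for TPKb. Root had 7 probe sets above leaf (20.6%, against 15.4% of all tested) and 7 below it (20.6%, against 11.6%). The excess in root was called for HAK1 (2.69, SE 0.40, and 2.29, SE 0.51), HAK10 (2.48 and 2.41), HAK9 (1.95), AKT1 (1.94) and HAK12 (1.44). The excess in leaf was called for HAK27 (−3.72, SE 0.52), the dimmer HAK5 probe set (−2.86, SE 0.44), HAK7 (−1.97 and −1.16), HAK17 S1_x_at (−1.79), HAK22 (−1.51) and HAK18 (−1.04). Without root replicate 3 AKT1 remained at 1.54 (adjusted p = 0.0047) and HAK1, HAK9 and HAK10 at 2.27 to 2.87, whereas HAK17 (−0.75, adjusted p = 0.21), HAK18 (−0.78, adjusted p = 0.022) and HAK7 S1_at (−1.12, adjusted p = 0.07) were not called. The last was lost with any 1 of the 6 root and leaf arrays left out (−1.12 to −1.19). HAK17 was also not called without leaf replicate 2 or 3 (adjusted p = 0.056 and 0.059).

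Against callus, root had 11 probe sets higher (32.4%, against 10.9% of all tested) and none lower (0%, against 10.5%). By limma 2 were lower at an unadjusted p under 0.05, HAK2 (−0.67) and the dimmer HAK5 probe set (−1.18, adjusted p = 0.054). The latter was called lower with root replicates 1 and 2 averaged as 1 sample (−1.46, adjusted p = 0.034), where 9 probe sets were higher. The 11 came from HAK1 (4.36 and 4.18), HAK22 (3.17), HAK18 (2.72), AKT1 (2.72), HAK10 (2.68 and 2.66), HAK16 (1.85), HAK7 S1_at (1.85) and HAK13 (1.02), and from TPK3 (2.26). The HAK13 call was lost without any 1 of the callus arrays (adjusted p = 0.093 to 0.097) and without root replicate 1 (0.86) or 3 (0.89). Without root replicate 3 HAK17 S1_at was higher in root than in callus (2.02, adjusted p = 0.0034, against 0.61 with all arrays), and TPKb was lower (−1.28, adjusted p = 0.011, against −0.74).

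Leaf had 13 probe sets above callus (38.2%, against 13.4% of all tested) and 2 below it (5.88%, against 17%). HAK22 (4.68, SE 0.33), HAK27 (4.23, SE 0.52), HAK18 (3.77, SE 0.25) and HAK7 (3.01 and 2.48) led the increase, followed by HAK17 (2.17 and 1.79), HAK16 (2.13), HAK1 (1.88 and 1.67), the dimmer HAK5 probe set (1.68), TPKa (1.14) and TPK3 (2.22). HAK9 (−1.57) and TPKb (−1.75) were lower in leaf. The first HAK17 probe set was not called without any 1 of the callus arrays or without leaf replicate 2 or 3 (2.06 to 2.21), and the second without callus replicate 2 or leaf replicate 2 or 3 (1.74 to 1.77). With the poly-A controls leaf had 6 probe sets above callus, HAK22, HAK27, HAK18, both HAK7 probe sets and TPK3. The 3 comparisons of callus, leaf and root share their arrays and are not independent of each other. Without TPK2 and TPK3 the counts were 7 and 7, 10 and 0, and 12 and 2 of 32.

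The probe sets of 1 gene did not always follow each other, which limits what can be said for that gene. Of the 7 genes with a pair of probe sets, HAK1 (Pearson r = 0.994 over the 8 tissue means of log2 values, a description), HAK7 (0.977), HAK10 (0.971) and HAK17 (0.863) had matching courses. For HAK3 (0.725) both probe sets rose at BCP, by 3.74 and 3.62, but they parted in mature pollen. The second, S1_x_at, read 107, 149.5 and 178.5 in UNMs, 2370.5, 2131 and 2479 in BCP and 2282.5, 2178 and 2260.4 in TCP. In MPGs it still read 1723, 1145 and 896 and in GPGs 1560.1, 241 and 1828, a change of −0.86 (SE 0.44, adjusted p = 0.12) from TCP to MPGs against −5.71 with S2_at. The change of S1_x_at depended on the scaling. By limma it was called lower with equal medians (−1.79, adjusted p = 0.0021) and the hybridisation controls (−2.51, adjusted p = 5.9e-05). It was also called lower with the poly-A controls (−2.66, adjusted p = 0.00084), but not with quantile normalization (−0.37). In the sporophyte it read 173, 139 and 188 in callus, 210.4, 166 and 203 in leaf and 49.3, 89 and 64.8 in root, where the other stayed under 11. An ending with an x marks probes that may also bind transcripts of other genes, which applies to AKT1 and HAK15 as well, and the part this plays was not tested. The HAK22 pair (0.386) compares a bright probe set with one that stayed under 100.

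**Figure D5:**
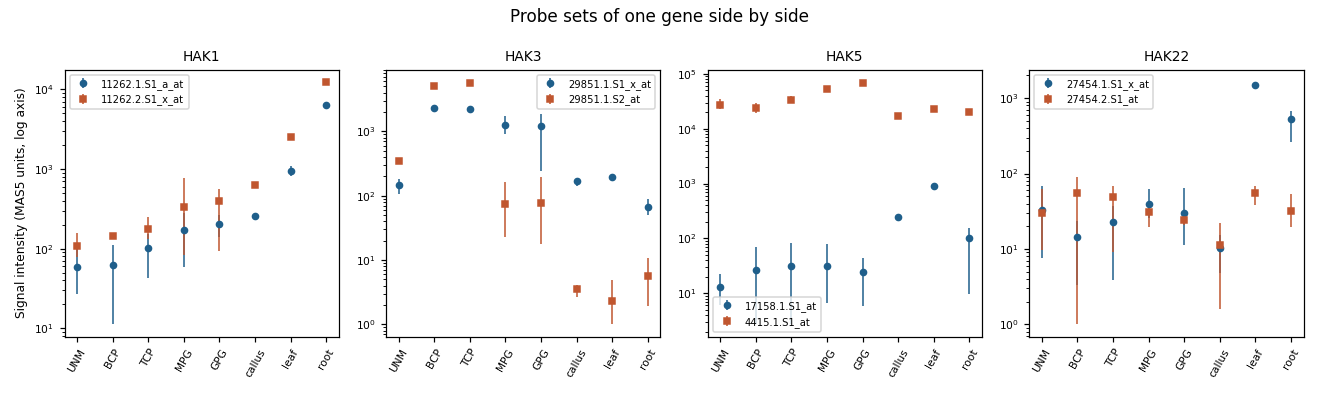
Signal intensity (MAS5 units, log axis) of both probe sets of HAK1, HAK3, HAK5 and HAK22 by tissue; points are means of 3 arrays and bars run from the lowest to the highest array. The HAK1 pair runs in parallel, the HAK3 pair parts in MPGs and GPGs, the HAK5 pair differs in all tissues, and the second HAK22 probe set stays under 90 in every array.

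CBL proteins are calcium sensors that bind CIPK kinases, and such pairs are known to activate potassium channels and transporters, among them rice AKT1 through CBL1 and CIPK23. The CBL and CIPK genes with a symbol in RefSeq were read alongside, with 8 and 34 probe sets tested. From BCP to TCP 3 CBL probe sets rose and 3 fell, and 5 CIPK probe sets rose and 9 fell, where 10.2% of all tested rose and 12.9% fell. CIPK20, CIPK30 and CIPK5 rose at the same step as HAK20, by 5.74, 5.57 and 5.01 on the log2 scale. CIPK30 had mean signals of 505 in BCP, 26243 in TCP and 139209 in MPGs, and at most 21.8 in callus, leaf and root. CIPK5 had 1525, 51171 and 168831, with 2443 in leaf. CIPK20 peaked in TCP at 23649 and had 7455 in MPGs.

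From TCP to MPGs 1 CBL probe set rose and 4 fell, while 9 CIPK probe sets rose and 6 fell, where 27% of all tested rose and 11.9% fell. These counts are for the deposited scaling, on which the rises at this step depend. CIPK21 rose by 3.50, from a mean of 140.1 in TCP to 2115 in MPGs. CBL4 rose by 3.67, from a mean of 1634 in TCP to 21128 in MPGs, and had 1067 in callus, 403 in leaf and 283 in root. CBL9 fell by −2.21 and −1.39 with its pair of probe sets. CBL3 also fell, with means of 6799 in BCP, 903 in TCP and 214 in MPGs. From UNMs to BCP the counts were 2 and 0 for CBL and 5 and 2 for CIPK (6.11% and 8.19% of all tested), and from MPGs to GPGs 0 and 0 and 2 and 1 (3% and 4.67%). In pollen against the sporophyte 5 CBL probe sets were higher and 1 lower, and 4 CIPK probe sets were higher and 18 lower, where 20.8% of all tested were higher and 20.7% lower. CBL9 was higher in pollen by 2.38 and 2.20, CIPK30 by 6.91, CIPK5 by 5.89 and CIPK20 by 4.32. CIPK23 was lower in pollen with both of its probe sets, by −4.08 (SE 0.26) and −1.66 (SE 0.28). The first had means of 6914 in root, 1494 in callus and 1027 in leaf, and 55.2 to 113 over the pollen stages. The second had 2419.5 in UNMs and 2465 in BCP, near its means of 2470 in root and 2372.5 in leaf. It had 1324 in TCP, 327 in MPGs and 302 in GPGs, and 3757 in callus. CBL1 had no probe set assigned.

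TPK2 and TPK3 are given apart because of the uncertainty of their names. TPK2 (LOC4326288) rose from UNMs to BCP and from BCP to TCP. It read 367.5, 284 and 322 in UNMs, 1558, 1509 and 1584 in BCP, 6352.5, 6318 and 6489.6 in TCP, 8516, 9323 and 11331 in MPGs and 7477, 8489 and 8542 in GPGs, with changes of 2.10 (SE 0.18) and 2.01 (SE 0.18) at these steps, the second of which was not called with the poly-A controls (1.46, adjusted p = 0.074). From TCP to MPGs it changed by 0.59 with the deposited scaling, −0.39 with equal medians, −1.19 (adjusted p = 0.0014) with the hybridisation controls and −1.45 (adjusted p = 0.062) with the poly-A controls. Its highest mean was in MPGs with the deposited scaling and in TCP with equal medians or the hybridisation controls. Callus read 419.7, 442 and 438, leaf 480.4, 536 and 420.5 and root 657, 693.5 and 588, so that all pollen arrays from BCP on were above all sporophytic ones. TPK3 (LOC4338566) was highest in root, 619 to 648, and leaf, 555 to 712, with 76.6 to 103 in callus and 3.1 to 144 in UNMs, BCP and TCP.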

How the data were processed

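The authors deposited 1 table of signal intensity values on a linear scale, made per the submitters' processing notes with GCOS and MAS5 (versions not given in the sources used here) and scaled to a common 2% trimmed mean of 500.1, for 57381 probe sets on 24 arrays of 8 tissues. Detection calls were not used here, and no genome build is given in the sources used here. After 123 array controls were left out, probe sets with a signal of 100 in 3 or more arrays (47589) entered a limma fit (version 3.58.1, R 4.3.3) on log2(signal + 50) with a coefficient for each of the 8 tissues, which share their residual variance. P-values were two-sided and adjusted over all tested probe sets by Benjamini-Hochberg. The study states 3 independent biological replicates, and their number limits the precision. Genes were named through the array annotation and RefSeq, with 22436 probe sets assigned to 1 gene, 95 to several and 34727 to none. The names gave no exchangers or proton pumps, so the related genes are those of CBL and CIPK.

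The members and lists were chosen with earlier results of these data known. Every gene with a member probe set is named. Values of all arrays are given where a log2 change of at least 2 was called between pollen stages or in pollen against the sporophyte. Of the related genes up to 4 with the largest called changes were named for a list and comparison. Alternatives covered the offset, the filter, 4 other scalings, replicate number as a block and each array left out. Averaging root replicates 1 and 2, and leaving out TPK2 and TPK3, were added after seeing the data. Python 3.11.15 with pandas 2.3.3, numpy 2.4.6 and matplotlib 3.10.9 did the rest.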

Additional observations from a re-analysis of the deposited data

How the results depend on the processing

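The precision is limited by 3 arrays a tissue, and low signals on MPG and GPG arrays lie near the raised median of those arrays. Of the 96 called changes of members all were called again without the filter and with replicate number as a block. With an offset of 16, 89 of the 96 were called again, with quantile normalization 90 and with equal medians 87. With hybridisation control scaling 83 were called again and with poly-A control scaling 68. Errors could be larger with the poly-A controls. For HAK2 from TCP to MPGs the SE was 0.57 with them and 0.20 with the deposited scaling. Leaving out 1 array at a time lost the call in 38 of 972 cases. Signs turned only with control scaling, for HAK12 (−0.21 with the hybridisation and −0.20 with the poly-A ones) and HAK18 (−0.47 and −0.69) from TCP to MPGs and for HAK15 (−0.19 with hybridisation controls) in pollen against the sporophyte. The cause was not tested.

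Some counts moved by more than 1.5 times. From UNMs to BCP 2 members fell with equal medians and 3 with hybridisation controls, where 1 did with the deposited scaling. From BCP to TCP 1 rose with poly-A controls in place of 4. From TCP to MPGs 6 rose with the deposited scaling, 3 with quantile normalization, 1 with equal medians and 0 with either control scaling, and 15 fell with hybridisation controls in place of 9. From MPGs to GPGs 1 rose with quantile normalization and 0 fell with either control scaling in place of 1. In root against leaf 2 were lower with poly-A controls in place of 7. In root against callus 1 was lower with equal medians, with either control scaling and with root replicates 1 and 2 averaged as 1 sample, in each case the dimmer HAK5 probe set, in place of 0. In leaf against callus 6 were higher with poly-A controls in place of 13, and 1 was lower with quantile normalization in place of 2.

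With 1 array left out the counts higher and lower were 9 to 9 and 1 to 2 from UNMs to BCP, 4 to 5 and 3 to 4 from BCP to TCP, 5 to 7 and 8 to 10 from TCP to MPGs, and 0 to 1 and 1 to 3 from MPGs to GPGs. They were 7 to 7 and 15 to 17 in pollen against the sporophyte, 7 to 8 and 5 to 7 in root against leaf, 9 to 11 and 0 to 1 in root against callus, and 11 to 13 and 2 to 2 in leaf against callus. The tissue of the highest mean was kept by 32 to 34 of the 34 probe sets. It was kept by 27 with quantile normalization, 30 with equal medians and 26 with hybridisation controls.

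Replicate number as a block moved 1 count, that of members higher in GPGs than in MPGs, from 0 to 1 (HAK14). Deviations from the group means correlated weakly between arrays that share a number, with medians of 0.029, 0.004 and 0.068 for numbers 1 to 3. For number 3 all pairs were positive, from 0.007 to 0.176, and 17 of 24 arrays correlated best with an array of their own number.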
